A study of Mus musculus with 16 samples.

Results

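Open chromatin of wild-type mice was compared between stages of spermatogenesis, the pachytene spermatocyte (PS) and the round spermatid (RS), in the 4 of the 16 libraries of the series that came from these cells. Both stages were taken from the testes of adult C57BL/6 animals, with 2 libraries each, and the members were chosen by the library titles. The assay was ATAC-seq, in which the Tn5 transposase inserts sequencing adapters where DNA is not covered by nucleosomes. Input was about 250000 cells for a PS library and 1000000 for an RS library, so the amount of material and the stage cannot be told apart. The remaining libraries of the series came from Scml2-knockout cells, which were not used here, and from wild-type C57BL/6 spermatogonia at postnatal day 7, sorted as Thy1+ (the fraction with stem and progenitor cells) or c-Kit+ (the differentiating fraction). Those 4 wild-type spermatogonial libraries served to say whether a site had a peak before meiosis, and they differ from the adult cells in age as well as in stage. The data were peak lists of each library, restricted to the 19 autosomes. Merging overlapping peaks of the 4 lists gave 103157 regions.

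Pachytene spermatocytes are in prolonged meiotic prophase, when homologous chromosomes are paired along the synaptonemal complex and recombination is completed. They already transcribe many genes whose proteins are used after the meiotic divisions, among them genes of the acrosome and the flagellum. Round spermatids are the haploid cells that follow, which transcribe the transition proteins and protamines before histones are replaced and transcription ceases. A-MYB (Mybl1) is known as a transcription factor of pachytene cells, CREM acts in spermatids through cAMP response elements, and several SOX factors act in the male germ line.

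The sequences below are 250 bases upstream of the annotated start of 6 genes, from RefSeq on GRCm38.p6, 5′ to 3′ on the strand of the gene, with the start next to the last base. They were chosen after the peaks and motif matches were known, as single examples of the peak patterns described further on. The capitals mark a motif match on either strand. These examples do not show how frequent a motif was at either stage, which is described further on. Mroh2b (chr15:4898487-4898736, + strand) and Smco2 (chr6:146849860-146850109, + strand) had promoter peaks in both PS libraries and in neither RS library, and the capitals mark the MYB core CAGTTG. Tmem81 (chr1:132505980-132506229, + strand) had peaks in both RS libraries only. Tuba8 (chr6:121210484-121210733, + strand) had RS values above that of PS replicate 1 and no peak in PS replicate 2. Tnp1 (chr1:73015900-73016149, − strand) had RS values above those of both PS libraries. In these 3 promoters the capitals mark the SOX core ACAATG. Iqcf3 (chr9:106561627-106561876, − strand) had peaks at this start in both RS libraries only, and the capitals mark the cAMP response element TGACGTCA.
Mroh2b: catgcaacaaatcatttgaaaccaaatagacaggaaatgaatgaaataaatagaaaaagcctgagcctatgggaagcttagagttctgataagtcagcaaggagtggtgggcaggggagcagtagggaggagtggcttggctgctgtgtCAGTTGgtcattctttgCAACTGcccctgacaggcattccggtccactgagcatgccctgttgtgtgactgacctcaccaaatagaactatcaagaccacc
Smco2: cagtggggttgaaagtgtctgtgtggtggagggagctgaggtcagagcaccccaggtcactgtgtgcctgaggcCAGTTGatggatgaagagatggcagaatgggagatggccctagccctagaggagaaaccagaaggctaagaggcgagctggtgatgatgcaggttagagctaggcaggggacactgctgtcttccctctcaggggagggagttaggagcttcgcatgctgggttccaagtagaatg
Tmem81: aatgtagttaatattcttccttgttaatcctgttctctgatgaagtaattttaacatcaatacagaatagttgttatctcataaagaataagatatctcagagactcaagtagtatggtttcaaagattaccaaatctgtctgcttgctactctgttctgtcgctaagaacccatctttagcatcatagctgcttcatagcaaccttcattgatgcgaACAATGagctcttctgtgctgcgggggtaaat
Tuba8: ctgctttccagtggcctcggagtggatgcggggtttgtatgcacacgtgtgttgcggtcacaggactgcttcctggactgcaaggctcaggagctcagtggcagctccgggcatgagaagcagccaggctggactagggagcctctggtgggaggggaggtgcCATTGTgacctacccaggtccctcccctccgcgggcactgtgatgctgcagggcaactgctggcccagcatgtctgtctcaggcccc
Tnp1: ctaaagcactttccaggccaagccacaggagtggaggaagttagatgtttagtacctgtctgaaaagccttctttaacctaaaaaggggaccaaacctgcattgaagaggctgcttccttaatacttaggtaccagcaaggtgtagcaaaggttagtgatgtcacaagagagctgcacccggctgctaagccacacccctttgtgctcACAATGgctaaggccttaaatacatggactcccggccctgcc
Iqcf3: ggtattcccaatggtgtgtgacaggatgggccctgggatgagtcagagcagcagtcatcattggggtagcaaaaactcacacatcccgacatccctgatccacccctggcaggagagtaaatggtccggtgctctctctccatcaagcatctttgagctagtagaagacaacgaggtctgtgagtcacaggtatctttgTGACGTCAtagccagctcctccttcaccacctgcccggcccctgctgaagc
A match is a description of the letters and not a measured binding site. The peaks that covered the printed bases of these genes also covered every match.

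The 4 lists differed in length, and list length decides how often a peak is absent. After joining lines that described the same peak, PS replicates 1 and 2 held 79285 and 24275 autosomal peaks, and RS replicates 1 and 2 held 51945 and 30929. The number of reads behind each list is unknown. All counts of presence were therefore also made with the 24275 peaks of the highest −log10 q in each list, called equal lists here. In these lists, the regions shared by a pair of libraries over those in either (the Jaccard index) came to 0.559 for the 2 PS libraries and 0.506 for the 2 RS libraries. Pairs across the stages gave 0.511, 0.441, 0.418 and 0.420, so PS replicate 1 and RS replicate 1 shared about as much as the RS replicates did. As deposited the PS pair had 0.259 and the RS pair 0.366, and the pairs across the stages 0.322, 0.240, 0.312 and 0.392, so the PS replicates then shared less than most pairs across the stages. As deposited, 20.2% and 49.7% of the PS peaks and 30.1% and 40.9% of the RS peaks lay within 1 kb of a transcription start site (TSS). These shares were 43.6% and 49.7% in PS and 42.7% and 46.4% in RS with equal lists, and the stages overlapped in both settings.

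The labelled cell types were checked against marker genes, counting a gene as open where a peak lay within 1 kb of any of its TSS, upstream or downstream, which is called a promoter peak. All 10 pachytene markers were open in all 4 libraries, RS included. Of 10 round spermatid markers, 10 and 5 were open in PS replicates 1 and 2 and 10 and 8 in RS replicates 1 and 2. The presence of a promoter peak at these markers therefore did not separate PS from RS. Of 8 spermatogonial markers, 5 and 4 were open in PS and 4 and 5 in RS, against 8 and 8 in the Thy1+ and 7 and 3 in the c-Kit+ libraries. The c-Kit+ replicate 2 list, with 31617 autosomal peaks, thus had fewer of them open than any PS or RS list. The Thy1+ lists were longer, with 132760 and 73211 peaks. In these bulk samples a smaller peak can come from fewer cells with the site open or from less accessible DNA in each cell, and these cannot be told apart.

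As deposited, 65530 of the 103157 regions (63.5%) had a peak in a single library, and with equal lists 18350 of 42132 (43.6%) did. A region counted as PS-only when both PS libraries and neither RS library had a peak in it, and as RS-only in the opposite case. As deposited, 3479 regions (3.37% of 103157) were PS-only and 1567 (1.52%) were RS-only, while 13651 had a peak in all 4 libraries. PS replicate 1 alone held 41612 regions with no peak in the other libraries, RS replicate 1 alone 15544, RS replicate 2 alone 6734 and PS replicate 2 alone 1640. With equal lists, 3154 of 42132 regions (7.49%) were PS-only and 1773 (4.21%) RS-only. The overlap of the settings was 1820 PS-only and 352 RS-only regions. PS-only regions outnumbered RS-only regions in both settings, by counts that have no test, since 2 against 2 libraries allow no two-sided exact p under 0.333. The counts rest on single libraries: as deposited, leaving out PS replicate 1, PS replicate 2 or RS replicate 1 gave 5905, 45552 and 6310 PS-only regions, and leaving out PS replicate 1, RS replicate 1 or RS replicate 2 gave 6898, 8497 and 17601 RS-only regions. RS-only regions were then the more numerous without PS replicate 1, without RS replicate 1 and without RS replicate 2 (4139 PS-only), and with equal lists without RS replicate 1 (4539 PS-only, 7527 RS-only) or RS replicate 2 (4077 and 6567). A stage left with 1 library needs a peak in that library alone, which raises its count.

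Stage-restricted regions lay mostly away from promoters. Within 1 kb of a TSS were 17.4% of the PS-only and 16.5% of the RS-only regions, close to the 17.8% of all regions, whereas 67.3% of the regions open in all 4 libraries lay there. Their peaks were small: the median of the lower of the 2 fold enrichments was 4.65 in PS-only and 4.13 in RS-only regions, where the lowest value of any of the 4 lists ranged from 3.10 to 3.52. The median length was 436 bp in PS-only and 281 bp in RS-only regions, against 899 bp in regions open in all 4 libraries and 216 bp over all.

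Most of these distal regions had no peak in spermatogonia. Among PS-only regions more than 1 kb from a TSS, 2001 of 2874 (69.6%) had no peak in any of the 4 spermatogonial libraries, and among RS-only regions 1064 of 1309 (81.3%) had none. The same share over all distal regions was 78.3%, between the 2. In the equal lists the shares were 58.6% for PS-only, 80.4% for RS-only and 68.9% for all distal regions. Near a TSS, 132 of 605 PS-only regions (21.8%) and 105 of 258 RS-only regions (40.7%) lacked a spermatogonial peak, against 19.9% of all regions near a TSS and 2.35% of those open in all 4 adult libraries. The PS-only share thus lay near that of all regions. Equal lists gave 18.4% for PS-only, 52.7% for RS-only and 11.4% for all regions near a TSS.

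In each direction 4 distal regions were named by the highest lower-of-2 fold enrichment among those restricted in both settings. In PS they were an intron of Tbcd (chr11:121470207-121472421), which encodes a tubulin folding cofactor, with fold enrichment 39.7 and 18.1 and no spermatogonial peak, and an exon of Cacng8 (chr7:3414514-3415932), a calcium channel subunit gene, with 20.1 and 17.1 and peaks in all 4 spermatogonial libraries. The others were a site near Gm14391 (chr2:175175498-175176282), with 33.0 and 16.6, and an exon of Dhh (chr15:98893879-98894557), which encodes the hedgehog ligand of Sertoli cells, with 23.2 and 15.6. The RS-only regions had smaller values. A site upstream of Dux and Gcc2 (chr10:58239412-58239625) had 8.86 and 8.64, a site near Gxylt1 (chr15:93189251-93189596) had 9.41 and 8.26, a site near Vmn2r87 (chr10:130542893-130544085) had 12.7 and 7.51, and a site upstream of Sh3rf3 (chr10:58792172-58792506) had 9.97 and 7.14. The Gxylt1 and Sh3rf3 sites had no peak in any spermatogonial library.

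As deposited and with equal lists, more promoters had peaks restricted to spermatocytes than to spermatids. Without PS replicate 1 the order was the reverse as deposited, with 514 PS-only and 759 RS-only genes. With equal lists the order held without that library, with 1113 PS-only and 406 RS-only genes. Of 19670 autosomal genes, 422 (2.15%) had a promoter peak in both PS libraries and neither RS library, and 149 (0.757%) had one in both RS libraries and neither PS library. With equal lists the counts were 629 (3.2%) and 191 (0.971%), and 255 PS-only and 32 RS-only genes were in both settings. The median of the lower fold enrichment was 5.03 for PS-only and 4.13 for RS-only genes, and 28 PS-only but 0 RS-only genes reached 10 in both libraries. The 2 peaks of a stage overlapped each other for 398 of 422 PS-only and 117 of 149 RS-only genes, so for the remainder the libraries marked different sites of one promoter window. Leaving out PS replicate 2, RS replicate 1 or RS replicate 2 gave 1257, 1076 and 690 PS-only genes, and leaving out RS replicate 1 or RS replicate 2 gave 402 and 479 RS-only genes. Open in all 4 spermatogonial libraries were 215 PS-only genes (50.9%) and 77 RS-only genes (51.7%), against 61.8% of all genes and 92.6% of the genes open in all 4 adult libraries. Open in none of the spermatogonial libraries were 60 PS-only (14.2%) and 38 RS-only genes (25.5%), against 21.1% of all genes. Equal lists gave 14.1% of the PS-only and 39.8% of the RS-only genes.

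**Figure D1:**
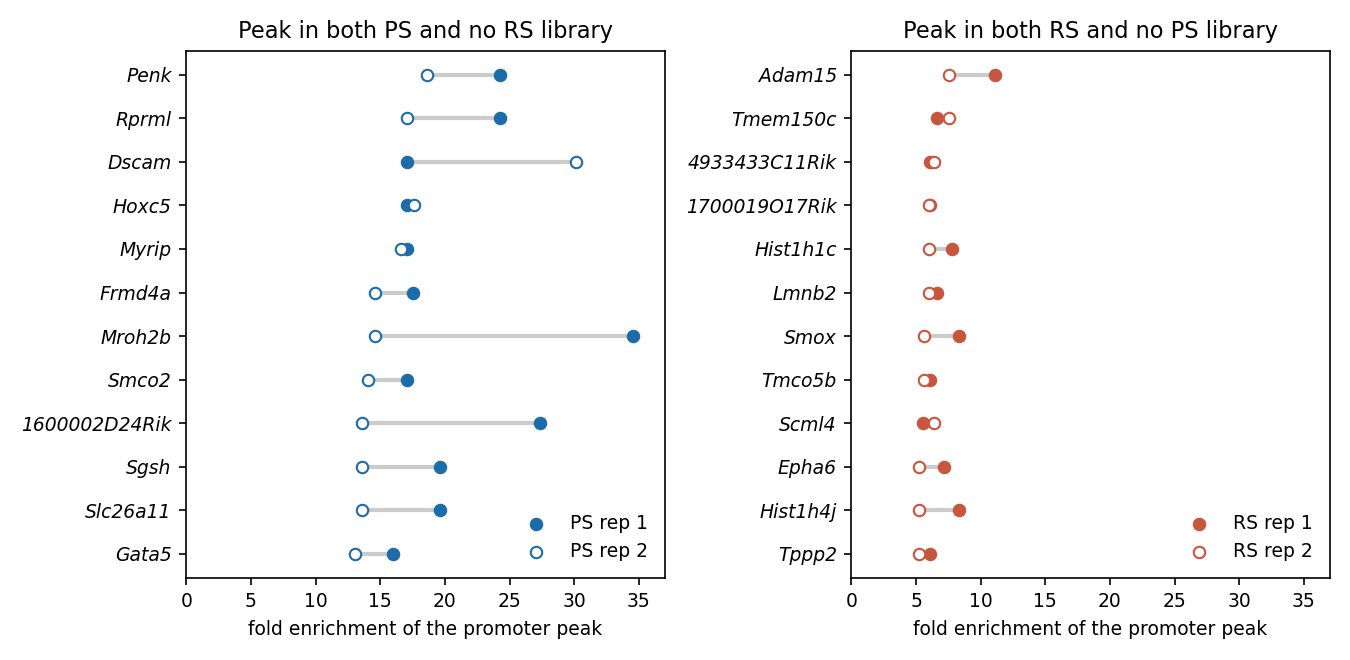
Fold enrichment of the promoter peak (horizontal axes from 0, linear) of the 12 named genes per direction, with a filled point for replicate 1, an open point for replicate 2 and a grey line between them. The left panel holds PS-only genes, from 13.1 to 34.6, and the right panel RS-only genes, from 5.26 to 11.1.

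Of the 12 PS-only genes with the highest lower fold enrichment, 8 had their TSS in the last 5 Mb of regions on the chromosome, namely Dscam, Hoxc5, Myrip, Smco2, 1600002D24Rik, Sgsh, Slc26a11 and Gata5, and 3 in the first 5 Mb, namely Penk, Frmd4a and Mroh2b. Among all 422 PS-only promoters these shares were 16.4% and 11.6%, among all genes 5.90% and 4.22%, and none of the 12 named RS-only genes lay in either stretch. Whether position had a part in these calls was not tested. Penk, which encodes the enkephalin precursor (TSS chr4:4138445), had fold enrichment 24.3 and 18.6 in PS replicates 1 and 2. Rprml (chr11:103649509), a reprimo-like gene, had 24.3 and 17.1. Dscam, a neuronal cell adhesion gene (chr16:97170735), had 17 and 30.2. Neither RS library had a peak at any of these 3 promoters, while at least 3 of the 4 spermatogonial libraries did. The homeobox gene Hoxc5 (chr15:103014008) had 17 and 17.6, with the summit 956 bp from the start, and the transcription factor gene Gata5 (chr2:180334679) had 16 and 13.1. Myrip, which encodes a Rab and myosin binding protein (chr9:120304073), had 17 and 16.6, and the scaffold gene Frmd4a (chr2:4400976) had 17.6 and 14.6. At Frmd4a the Thy1+ libraries had 29.5 and 24 and the c-Kit+ libraries 16.6 and 12.3, so a promoter open in every earlier library had no RS peak. The lysosomal sulfatase gene Sgsh (chr11:119355510) and the anion transporter gene Slc26a11 (chr11:119355557) share a bidirectional promoter with 19.6 and 13.6, and the data cannot assign the peak to one of them.

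The others in this group had few or no spermatogonial peaks. Mroh2b (chr15:4898737), a testis gene of the maestro family, had 34.6 and 14.6, with summits 63 and 125 bp upstream of the start, and none of the 4 spermatogonial libraries had a peak there. Its printed promoter holds 2 matches to the MYB core, beginning 101 and 84 bases before the start. Smco2 (chr6:146850110), which encodes a membrane protein with a coiled coil, had 17 and 14.1, with 1 match beginning 176 bases before the start. Both spermatogonial peaks assigned to Smco2 lay downstream of the start and did not cover the printed bases. For 1600002D24Rik (chr16:95898713), with 27.4 and 13.6, the call rested on the window. Its summit lay 1116 bp from the TSS, RS peaks lay in the same merged region, and that region was higher in PS by 1.80 on the log2 scale in the test of shared regions described further on.

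RS-only promoters were led by smaller peaks, some of them at genes open before meiosis. Over all RS-only genes the share open in all 4 spermatogonial libraries was 51.7% (39.3% with equal lists), below the 61.8% of all genes. Adam15, a membrane metalloprotease gene (TSS chr3:89350028), had fold enrichment 11.1 and 7.51 in RS replicates 1 and 2. Tmem150c (chr5:100159281), a membrane protein gene, had 6.64 and 7.51. Smox (chr2:131491862), which encodes spermine oxidase, had 8.31 and 5.64. Neither PS library had a peak at these 3, whereas all 4 spermatogonial libraries did. Lmnb2 (chr10:80906412), which encodes lamin B2 and from another start the spermatid lamin B3, had 6.64 and 6.01. The ephrin receptor gene Epha6 (chr16:60605531) had 7.20 and 5.26, with the summit 745 bp from the start. For Tmem150c and Epha6 the 2 RS peaks that remained in the equal lists did not overlap each other. Scml4 (chr10:42860512), a gene of the Scm-like family of Polycomb-related proteins, had 5.54 and 6.39.

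Histone genes were among the RS-only promoters. The linker histone gene Hist1h1c (chr13:23738807) had 7.75 and 6.01 in RS and no PS peak, after 24.7 and 22.9 in the Thy1+ and 24.3 and 11.3 in the c-Kit+ libraries. The histone H4 gene Hist1h4j (chr13:21735096) had 8.31 and 5.26 in RS and peaks in all 4 spermatogonial libraries. Such genes belong to the clustered replication-dependent histone genes, which are known for use in S phase. Of 48 autosomal histone genes of this naming, 3 were RS-only as deposited, which is 2.01% of the RS-only genes against 0.244% of all genes, and Hist1h2bb was the third. Among them 1 was PS-only, Hist2h3c2 (0.237% of the PS-only genes), and 17 were open in all 4 libraries. In the equal lists they were 6 (3.14%), namely Hist1h1a, Hist1h1c, Hist1h2bh, Hist1h2bm, Hist1h4i and Hist1h4j. Every one of these RS-only genes lies on chromosome 13, neighbours can share reads between near-identical copies, and the family was singled out after its values were seen.

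Other RS-only promoters had no peak in any spermatogonial library. These were 4933433C11Rik (chr2:25214630) with 6.09 and 6.39, 1700019O17Rik (chr1:86426329) with 6.09 and 6.01, Tmco5b (chr2:113285732) with 6.09 and 5.64, and Tppp2 (chr14:51918761), a tubulin binding protein gene of sperm, with 6.09 and 5.26. Tmem81, which encodes a sperm membrane protein of the fertilization complex, had 7.20 and 4.88 in RS and no peak in PS or in spermatogonia. RIKEN clone symbols of the testis cDNA series, such as 1700019O17Rik, made up 17 of the RS-only genes (11.4%) and 36 of the PS-only genes (8.53%), against 2.94% of the genes open in all 4 libraries and 4.03% of all. Equal lists gave 24.1% of the RS-only and 9.38% of the PS-only genes. This family too was singled out after seeing the values.

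Some genes of the lists described further on were just short of these rules. In the equal lists alone, 5 of them counted as RS-only and 9 as PS-only, because a low peak of replicate 1 of the other stage was not among the 24275 kept. Fold enrichment in PS replicate 1, RS replicate 1 and RS replicate 2 was 4.13, 7.75 and 6.76 at H1fnt, the spermatid linker histone. It was 5.68, 6.09 and 7.51 at Tekt5, a sperm tektin, and 4.13, 6.09 and 6.39 at Oaz3, the testis antizyme. Lrrc52, a subunit of the sperm potassium channel, had 5.68, 8.31 and 6.76, and Stra8, the gene of meiotic entry, had 3.61, 9.97 and 4.51. PS replicate 2 had no peak at these genes. In the other direction the 9 included Dnah17, Slc9c1, Actl9, Pnldc1, Spink2, Catsperb, Hoxc13 and the meiotic genes 2410076I21Rik (Rec114) and 1700123I01Rik (Majin). Dnah17 (a flagellar dynein) had 24.8 and 5.03 in PS with 4.43 in RS replicate 1, Slc9c1 (a sperm sodium/proton exchanger) had 14.5 and 6.03 with 4.98, Actl9 (a perinuclear theca gene) had 13.4 and 6.53 with 4.43, and Pnldc1 (the piRNA trimming enzyme) had 10.8 and 6.03 with 4.98.

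Regions with a peak in all 4 libraries were compared by size, with limma on quantile-normalised log2 fold enrichment and Benjamini-Hochberg adjustment over 13651 regions at 0.05. The median RS minus PS difference was 0.02 on the log2 scale, with an SD over regions of 0.57. At this threshold 63 regions (0.462%) were higher in PS and 2 (0.0147%) higher in RS. At an unadjusted p under 0.05 there were 1503 and 1371. Both PS values lay above both RS values in 3302 regions (24.2%) and the reverse held in 3545 (26%), so ordered differences were about as frequent in both directions. The calls rest on 2 libraries per stage and none remained with any one library left out, although the differences of the leading regions stayed near their size (Tuba3b −2.48 to −2.38, Iffo2 1.60 to 1.93), in fits with a single library in one stage. Centring each library on its median in place of quantile normalisation called 263 regions higher in PS and 139 higher in RS.

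**Figure D2:**
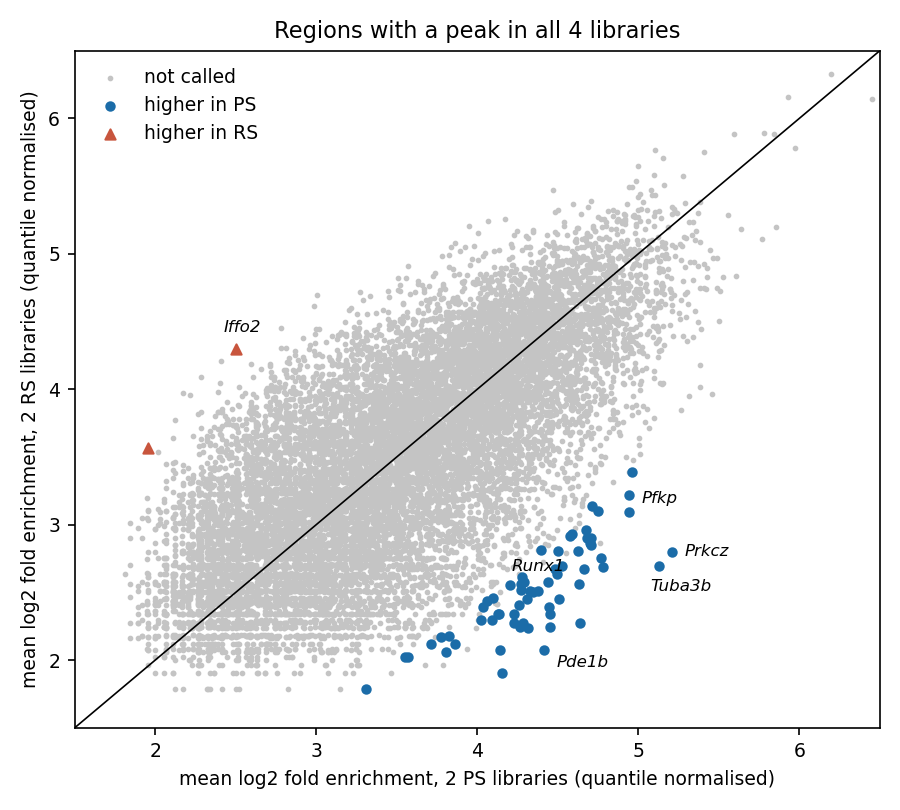
Mean log2 fold enrichment of the 2 RS libraries (vertical axis) against that of the 2 PS libraries (horizontal axis) after quantile normalisation, one point per region with a peak in all 4 libraries, and a line where both are equal. The 63 regions called higher in PS lie below the line and the 2 called higher in RS above it, among 13651 regions that spread to both sides.

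Among the promoters higher in PS, Tuba3b, a testis alpha-tubulin gene, led. Its region (chr6:145615411-145621195) had fold enrichment 45.9 and 35.7 in PS and 6.64 and 5.26 in RS, a log2 difference of −2.43 (SE 0.29, limma adjusted p = 0.0304). Both PS values stood several times above both RS values, although every library had a peak. Prkcz, which encodes an atypical protein kinase C, had 45.9 and 40.7 in PS and 8.86 and 4.88 in RS (chr4:155360899-155362234, log2 difference −2.41). The region of Mir124a-3, a microRNA known from neurons, had 28.9 and 28.6 against 4.98 and 4.13 (chr2:180892554-180895384, −2.37). The phosphodiesterase gene Pde1b had 30.5 and 19.1 against 3.32 and 4.51 (chr15:103502632-103503389, −2.35). The following 4 were Xkr4 with 27.4 and 23.1 against 4.43 and 4.88, Fam228a with 44.9 and 21.1 against 6.09 and 5.64, the testis-expressed gene Tex22 with 26.8 and 19.1 against 5.54 and 3.76, and the transcription factor gene Runx1 with 32.0 and 25.1 against 4.98 and 5.64. Their log2 differences were −2.11, −2.10, −2.08 and −2.06. The groups did not overlap at any of these 8 promoters, which were taken for the largest differences. Both PS values lay above both RS values in 24.2% of all shared regions. Tuba3b, Prkcz, Mir124a-3 and Pde1b lay in the last 5 Mb of regions on their chromosomes, and Tex22 and Runx1 did not. Xkr4 and Fam228a lay near the start of the chromosome coordinates (chr1:3670534 and chr12:4737707). The last 5 Mb held 27 of the 63 regions called higher in PS and 906 of all 13651 shared regions. Whether position had a part in these calls was not tested.

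Also among the 63, and chosen after their values were seen, were 2 regions of Cbx2. A region upstream of Cbx2, which encodes a chromobox subunit of Polycomb repressive complex 1, was lower in RS by a log2 difference of −1.86 (limma adjusted p = 0.0381), and its promoter region by −1.65 (limma adjusted p = 0.0426). The distal regions with the largest differences lay upstream of the zinc finger gene Zbtb46 (29.4 and 13.6 in PS, 3.88 and 3.38 in RS, −2.25), in an exon of Prdm16 (26.8 and 23.6 against 4.43 and 4.51, −2.21) and in an exon of Zfp316 (19.6 and 21.1 against 3.32 and 4.51, −2.07). The Cbx2, Zbtb46 and Prdm16 regions lay in the last 5 Mb of regions on their chromosomes, and the Zfp316 region did not.

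In the other direction 2 regions passed the test. The promoter region of Iffo2, an intermediate filament family gene (chr4:139574075-139575066), had 6.19 and 5.53 in PS and 20.5 and 14.7 in RS, a log2 difference of 1.80 (SE 0.30, limma adjusted p = 0.0333). An exon of Srcrb4d, a scavenger receptor domain gene (chr5:135962437-135963417), had 4.65 and 3.52 in PS and 13.3 and 8.26 in RS, a difference of 1.61 (SE 0.29, limma adjusted p = 0.0441). The next promoters did not pass the test: Pdk1, a pyruvate dehydrogenase kinase gene, with 1.55 (limma adjusted p = 0.0549), and the presenilin gene Psen2 with 1.44 (limma adjusted p = 0.0579). Both passed it with median centring (limma adjusted p = 0.0151 and 0.0251) and with a trend in the variance prior (limma adjusted p = 0.0253 and 0.0374). Tnp1, transition protein 1, had 7.74 and 6.53 in PS and 13.3 and 13.5 in RS, a difference of 1.18 (SE 0.31, limma adjusted p = 0.0862). Prm1, protamine 1, had 6.19 and 4.52 in PS and 8.31 and 15.0 in RS, a difference of 1.33 (SE 0.40, limma adjusted p = 0.108). Neither passed the test. At each gene both RS values lay above both PS values, as they did in 3545 of the 13651 shared regions (26%).

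Spermatid and meiotic genes were described by 18 lists, chosen with earlier results of these data known. Over all 19670 genes, 68.7% and 59.3% were open in PS, 63.2% and 59.0% in RS, and 51.3% in all 4 libraries. PS-only and RS-only were 2.15% and 0.757% of all genes as deposited, and 3.2% and 0.971% with equal lists. Of all shared regions, 0.462% were called higher in PS and 0.0147% higher in RS. The counts of the lists are to be read against these shares. Of 17 genes of nuclear condensation, 17 and 15 were open in PS and 17 and 16 in RS as deposited. The median log2 difference of the 15 with a shared region was 0.06, with 8 above 0 and 7 below, against a median of −0.03 over 10033 genes (4769 above and 5264 below). Prm2 had 9.81 in PS replicate 1, no peak in PS replicate 2, and 8.86 and 11.3 in RS. Tnp2, transition protein 2, differed from Tnp1 in sign, with 22.2 and 21.6 in PS and 10.5 and 12 in RS, a log2 difference of −0.60 that did not pass the test.

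Acrosome genes were open in 28 and 13 of 30 in PS and 28 and 22 of 30 in RS, so the 2 PS libraries differed more from each other than the stages did. Adam2, a sperm surface gene, was PS-only with 14.5 and 4.52, and Tmem95, a gene of sperm and egg fusion, was RS-only with 5.54 and 4.88, where the 2 RS peaks did not overlap. Acrv1 had 6.71 and no peak in PS and 9.41 and 7.89 in RS, while Spaca1 had 28.4 and 16.1 in PS and 26.0 and 19.9 in RS. Of 35 flagellar genes, 34 and 24 were open in PS and 30 and 24 in RS, and the PS-only member was Cetn1, the testis centrin, with 20.6 and 8.54. Odf1, an outer dense fibre gene, had 7.23 and no peak in PS and 12.7 and 6.39 in RS. Of 24 genes of the CatSper channel, sperm ion transport and testis kinases, 20 and 14 were open in PS and 21 and 16 in RS. Tssk2, a testis kinase, was RS-only with 9.41 and 5.26 (TSS chr16:17898637).

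Among 20 energy genes of germ cells, 18 and 15 were open in PS and 18 and 17 in RS. Of the 15 with a shared region, 2 were called higher in PS, against 63 of all 13651 shared regions (0.462%). Pfkp, a phosphofructokinase gene, had 40.3 and 31.7 in PS and 7.75 and 7.51 in RS (log2 difference −1.85, SE 0.30, limma adjusted p = 0.033). Cox6b2, a testis cytochrome c oxidase subunit, had 35.6 and 18.6 in PS and 7.20 and 5.64 in RS (−1.70, SE 0.30, limma adjusted p = 0.0426). Both regions lie near the start of the chromosome coordinates (chr13:6647953-6649662 and chr7:4751989-4753570). The PS lists held a larger share of their peaks in the first 5 Mb than the RS lists, as given further on. Whether position had a part in these calls was not tested. Of 23 spermatid transcription regulators, 22 and 20 were open in PS and 21 and 21 in RS, and Rfx4, an RFX family gene, was PS-only with 12.9 and 7.04.

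Of 35 genes of synapsis, recombination and cohesion, 33 and 33 were open in PS and 33 and 29 in RS, against the 59.0% to 68.7% over all genes. In the equal lists 2 of the 35 were PS-only, Rec114 and Majin, against 3.2% of all genes. By limma 0 of the 29 members with a shared region passed, against 0.462% of all shared regions toward PS and 0.0147% toward RS. The median log2 difference of these members was −0.13, with 10 above 0 and 19 below. Sycp1, a transverse filament gene of the synaptonemal complex, had 27.9 and 21.1 in PS and 11.6 and 10.9 in RS (−0.75, limma adjusted p = 0.186). Spo11, which makes the meiotic breaks, had 19.1 and 24.1 against 12.2 and 7.89 (−0.76, limma adjusted p = 0.239). Of 29 meiotic division genes, 29 and 29 were open in PS and 28 and 27 in RS. Aurkc, the meiotic Aurora kinase, was PS-only with 7.23 and 5.03, and Tuba3b was the 1 member called higher in PS. Of 22 piRNA pathway genes, 21 and 21 were open in PS and 21 and 20 in RS, with a median log2 difference of −0.18, 6 above 0 and 14 below. Piwil1, the pachytene PIWI protein, had 26.3 and 8.54 in PS and 8.86 and 6.76 in RS.

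**Figure D3:**
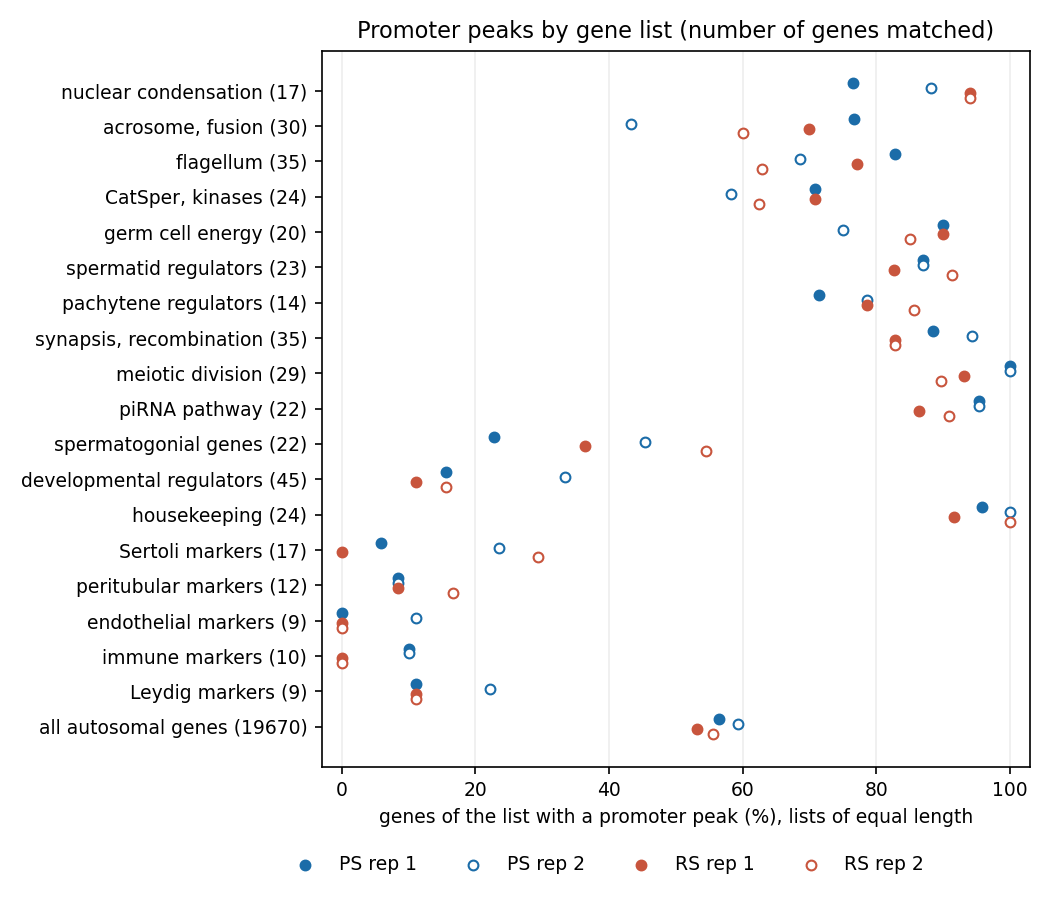
Share of the genes of each list with a promoter peak (horizontal axis, percent, equal lists), with a filled point for replicate 1 and an open point for replicate 2 of PS (blue) and RS (red), the number of matched genes in parentheses, and all 19670 genes at the bottom. In the acrosome list the 2 PS libraries stand at 76.7% and 43.3% with both RS libraries between them, and in the meiotic division list all 4 lie between 89.7% and 100%.

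Developmental regulators of the kind bound by Polycomb proteins were counted next. Of 45, 14 and 15 were open in PS and 12 and 11 in RS, against 37 and 30 in the Thy1+ and 26 and 19 in the c-Kit+ libraries. Somatic markers had more peaks in the spermatogonial libraries too, with 15, 14, 15 and 11 of 17 Sertoli markers and 12, 12, 12 and 8 of 12 peritubular markers in the Thy1+ and c-Kit+ libraries. The Thy1+ lists held 132760 and 73211 autosomal peaks and the c-Kit+ lists 81517 and 31617. Whether other cells or list length had a part in these counts was not tested. As deposited 3 of the 45 developmental regulators were PS-only and 0 RS-only, against 2.15% and 0.757% of all genes. The PS-only ones were Hoxc8 with 6.71 and 5.03, Sox1 with 8.26 and 9.05, and Six2 with 6.19 and 8.04. Among all 39 autosomal Hox genes, Hoxc5, Hoxc8 and Hoxc12 were PS-only, 0 were RS-only, and Hoxc13, with 11.4 and 7.04 in PS and 3.32 in RS replicate 1, joined them in the equal lists. The PS-only Hox genes were 0.711% of the PS-only genes, against 0.198% of all genes. All 4 lie in the HoxC cluster on chromosome 15, in the last 5 Mb of regions there, where PS-only regions were frequent.

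Markers of other testis cells had few and small peaks. Of 17 Sertoli markers, 7 and 4 were open in PS and 3 and 5 in RS. Of 12 peritubular markers, 6 and 1 were open in PS and 5 and 2 in RS, of 9 endothelial markers 3 and 1, and 4 and 0, of 10 immune markers 2 and 1, and 1 and 0, and of 9 Leydig markers 2 and 2, and 1 and 1. Summed fold enrichment of the Sertoli markers was 35.1 and 28.6 in PS and 12.2 and 24.4 in RS, and that of the peritubular markers 27.9 and 6.03, and 22.7 and 9.02. For the endothelial markers it was 12.9 and 6.53 in PS and 16.6 and 0 in RS, for the immune markers 11.9 and 3.52, and 3.88 and 0, and for the Leydig markers 13.9 and 8.54, and 8.31 and 5.26. None of the 4 libraries had a peak at Gata4, Shbg, Pecam1, Ptprc, Star, Cyp17a1 or Insl3. A few markers followed a stage: Krt18 (4.13 and 4.52) and Cd74 (7.23 and 3.52) were PS-only, and Wt1 (3.32 and 4.51) and Col1a1 (4.43 and 4.13) were RS-only. Whether other cell types had a part in stage-restricted peaks was not tested.

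A larger share of the PS-only regions than of other regions lay near chromosome ends. This was noticed after the data were seen and has no test. Distance was taken to the last merged region of each chromosome, which in the mouse lies at the end away from the centromere. Of the 3479 PS-only regions, 907 (26.1%) lay in the last 5 Mb, against 906 of the 13651 regions open in all 4 libraries (6.64%), 12% of all regions and 45 of the 1567 RS-only regions (2.87%). Equal lists gave 22.1%, 6.39%, 9.18% and 2.93%. Among distal regions alone they were 28.1% for PS-only, 8.39% for all 4, 13.1% for any and 3.13% for RS-only. The PS-only share was higher in the last 5 Mb than in the remainder on 17 of 19 chromosomes, with chromosomes 13 and 17 as exceptions, at a median of 6.98% against 2.93%. The RS-only share was higher there on 0 of 19 (0.302% against 1.64%).

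The libraries of each stage stood apart in this measure. As deposited, 14.1% and 12.5% of the PS peaks lay in the last 5 Mb, against 5.95% and 5.77% of the RS peaks, 5.03% and 4.84% of the Thy1+ and 5.29% and 5.09% of the c-Kit+ peaks. In the equal lists the PS libraries had 9.54% and 12.5% and the RS libraries 5.65% and 5.54%, so both PS libraries lay above all the others in either setting. In the first 5 Mb the PS libraries had 6.95% and 5.43% and the RS libraries 2.45% and 2.43%, with 3.84% to 4.69% in spermatogonia. Peak size showed the same order: the 906 shared regions of the last 5 Mb had a median log2 difference of −0.50, with 27 called higher in PS and 0 in RS by limma (both PS above both RS in 57.4%, the reverse in 9.49%). The other 12745 shared regions had a median of 0.04, with 36 and 2 called (21.8% and 27.1%). Leaving out one library at a time gave PS-only shares of 19.5% to 25.6% in the last 5 Mb, and keeping peaks of 5-fold or more gave 21.8%. The RS-only shares were 2.81% to 4.44% and 4.03%. Windows of 1 Mb with the most PS-only regions were at 120 to 121 Mb of chromosome 11, with 30 of 398 regions, at 180 to 181 Mb of chromosome 2, with 27, and at 155 to 156 Mb of chromosome 4, with 25, while the median window held 0. Gene density, base composition and mappability near the ends were not examined, so their part was not tested.

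**Figure D4:**
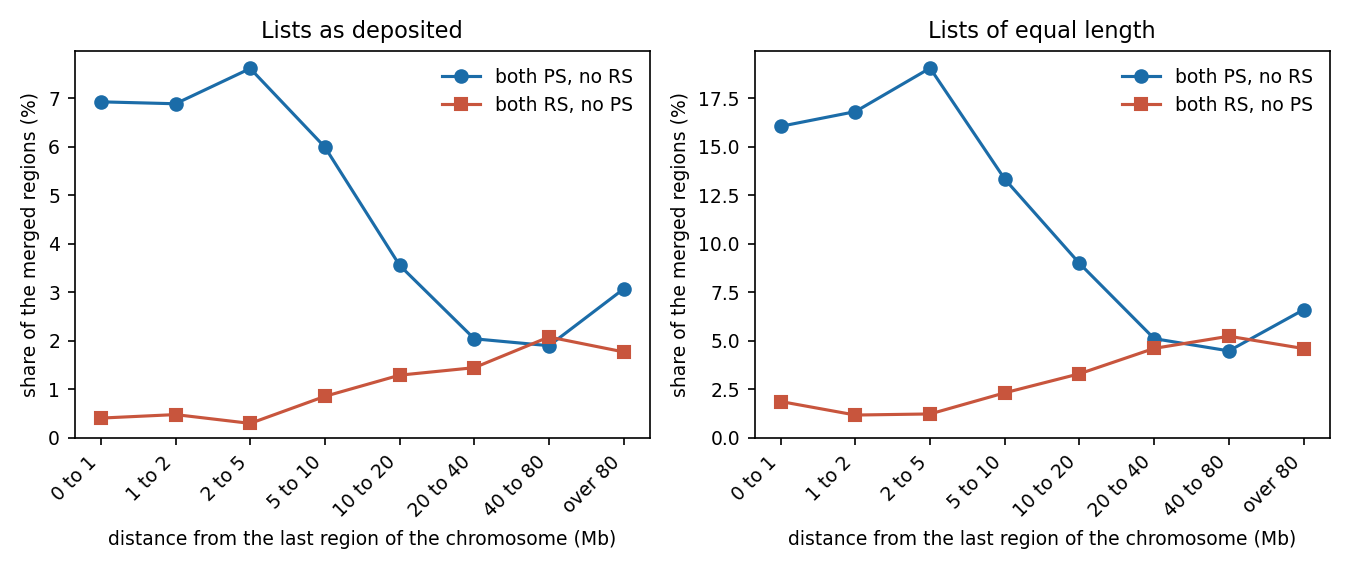
Share of the merged regions that were PS-only (circles) or RS-only (squares) (vertical axes, percent) by distance from the last region of the chromosome (horizontal axes, Mb), as deposited on the left and with equal lists on the right, where the vertical scale differs. As deposited the PS-only share is 6.93% in the last Mb and 1.90% between 40 and 80 Mb, and the RS-only share is 0.408% and 2.08%.

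Promoter sequence was described by the letters of 12 motifs, searched on both strands from 250 bases before to 50 after the start in 17691 RefSeq promoters. Besides those printed above they were the NRF1 site, the TATA box TATAAA, the GC box GGGCGG, the CCAAT box CCAAT, the E-box with CpG CACGTG, the BANP element, the CTCF core, the X-box of RFX factors and the partial site TGACGT, which every full cAMP response element contains. The MYB core CAGTTG was in 14.9% of 335 PS-only promoters (Wilson 95% interval 11.5% to 19.1%) and 11.2% of 134 RS-only promoters, against 8.91% of those open in all 4 libraries, 15.5% of those open in none and 11.7% of all. The SOX core ACAATG was in 17.2% of the RS-only (Wilson 95% interval 11.7% to 24.4%) and 7.76% of the PS-only promoters. Its share was 6.38% of those open in all 4, 14.9% of those open in none and 9.78% of all, so the RS-only interval held the share of promoters open in none. With equal lists the SOX core was in 24.7% of 178 RS-only promoters (Wilson 95% interval 19% to 31.5%) and 7.41% of the PS-only promoters. In that setting it was in 6.15% of those open in all 4 and 14.0% of those open in none. The cAMP response element TGACGTCA was in 4.48% of the RS-only and 0.896% of the PS-only promoters, against 3.96% of those open in all 4 and 2.53% of all, and with equal lists in 2.81% and 2.14%. The NRF1 site was in 4.18% of the PS-only promoters and in 0 of 134 RS-only promoters (Wilson upper limit 2.79%), against 13.0% of those open in all 4.

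Base composition moved with these shares. The median number of CpG dinucleotides was 14 in PS-only and 12.5 in RS-only promoters, 24 in those open in all 4 and 4 in those open in none, and with equal lists 14 in PS-only and 6 in RS-only promoters. Promoters with at most 5 CpG made up 18.2% of the PS-only and 31.3% of the RS-only promoters, against 3.24% of those open in all 4, and with equal lists 46.1% of the RS-only promoters. Within promoters of at most 5 CpG, the SOX core was in 13 of 42 RS-only (31.0%), 7 of 61 PS-only (11.5%) and 871 of 4562 promoters in all (19.1%), and with equal lists in 30 of 82 RS-only (36.6%) and 13.0% of the PS-only promoters. Tmem81 is an example, with the match beginning 32 bases before the start. At Tuba8, an alpha-tubulin gene, the match begins 87 bases before the start. Fold enrichment there was 3.61 in PS replicate 1 and 9.41 and 9.77 in RS, with no peak in PS replicate 2. The spermatogonial peaks, which also covered the match, had 10.9 and 7.63 in Thy1+ and 6.53 and 6.68 in c-Kit+. At Tnp1 it begins 42 bases before the start, but the summits of the RS peaks that cover it lay 596 and 1339 bp downstream of the start, those of the PS peaks 49 bp upstream and 498 bp downstream. At Iqcf3 the cAMP response element begins 51 bases before the start, with RS values of 7.20 and 4.51, and PS replicate 1 had a peak of 4.13 at another annotated start of this gene.

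**Figure D5:**
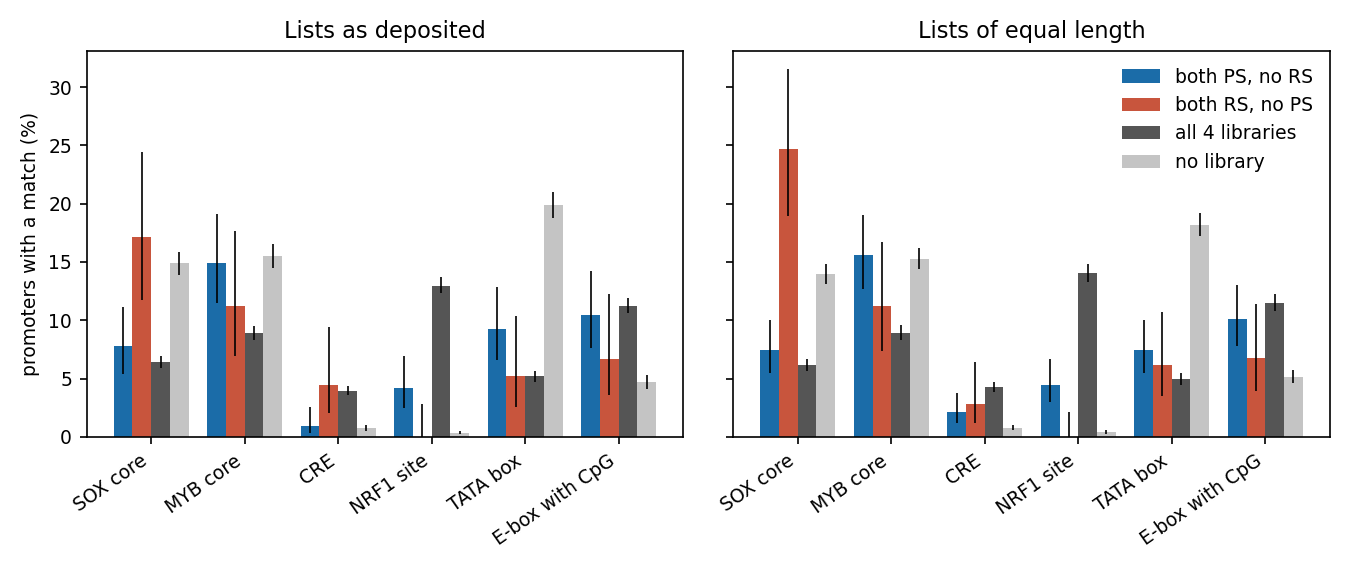
Share of promoters with a match to 6 of the motifs (vertical axis, percent) among promoters with peaks in both PS and no RS library, both RS and no PS library, all 4 libraries and no library, as deposited on the left and with equal lists on the right, with Wilson 95% intervals as lines. For the SOX core the RS-only bar is the highest in both panels, at 17.2% and 24.7%, and for the NRF1 site the bar of promoters open in all 4 libraries is.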

How the data were processed

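The deposited peak lists of 4 wild-type libraries (2 PS, 2 RS) were used, with 4 wild-type spermatogonial lists for presence before meiosis. The submitters' processing notes name Bowtie 1.1.1, MACS2 2.1.0.20140616 and the build mm10, with peak calling settings not given in the sources used here. Reads were 75-bp single reads of fragments selected at 250 to 500 bp, per the labels' protocols. Per the file headers, the authors deposited for each peak a pileup (coverage signal at the summit), a fold enrichment (ratio), −log10 p and −log10 q (each a −log10 value), and a peak length in bp. Each list was called on its own library. Fold enrichment, the authors' value, was the pileup plus 1 over a constant of the list, so 1 more read was worth 0.516, 0.503, 0.554 and 0.376 in PS replicates 1 and 2 and RS replicates 1 and 2. Read totals are unknown, so no interval for depth is given. Where no peak was listed, accessibility may have been present below the caller's cut-off.

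Lines with equal coordinates were joined, peaks overlapping by at least 1 bp were merged, and promoter peaks overlapped 1 kb on either side of 26811 start sites from the authors' annotation and RefSeq. Equal lists kept the 24275 peaks of highest −log10 q. Shared regions were tested with limma 3.58.1 in R 4.3.3 on the highest log2 fold enrichment per region, quantile normalised, with no pseudocount. On simulated data for these 13651 regions the test recovered 93% of log2 changes of 2 and 23% of changes of 1, with 3 false calls. The simulation gave every region and library independent noise with 1 common SD of 0.354 on the log2 scale. It held no differences in spread between regions or libraries and no structure shared by replicates, so these rates need not hold for the real data. Named genes were the 12 promoters per direction with the highest lower fold enrichment restricted in both settings, the 8 promoter regions per direction with the largest difference past the limma threshold (toward RS 1 passed, so 7 more that missed it were taken by size among those whose stages did not overlap), 4 distal regions per direction, up to 3 shared distal regions past the threshold (1 toward RS), and stage-restricted or called members of the lists. The members and lists were chosen with earlier results of these data known. Separate animals for the replicates are not stated in the labels, and p-values then measure a spread of libraries that may be technical only. Replicate numbers follow the sample titles. Python 3.11.15, pandas 2.3.3 and SciPy 1.17.1 were used.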

Additional observations from a re-analysis of the deposited data

How the results depend on the processing

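Counts of stage-restricted features moved most with the libraries used. As deposited, RS-only regions numbered 809 at −log10 q of 5 or more and 596 at 5-fold or more, and promoters numbered 686 PS-only at −log10 q of 5 or more and 869 PS-only and 96 RS-only at 5-fold or more. Setting the replicate 1 libraries alone against each other gave 47682 PS-only and 18172 RS-only regions (8105 and 7551 with equal lists) and 1642 and 556 promoters (1365 and 715). The replicate 2 libraries gave 9048 and 15356 regions (10041 and 9954) and 1191 and 1129 promoters (1599 and 854). Among regions as deposited RS-only thus exceeded PS-only there. Among promoters as deposited the same held without PS replicate 1 (514 PS-only, 759 RS-only). Equal lists cut to 0.5 of that length gave 1492 and 1139 regions. Leaving out 1 library gave 4139 to 45552 PS-only and 1734 to 17601 RS-only regions as deposited, and 4077 to 8204 and 2368 to 7527 with equal lists. For promoters it gave 514 to 1257 PS-only and 203 to 759 RS-only, and 847 to 1113 and 397 to 600 with equal lists.

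Calls among shared regions (63 higher in PS, 2 in RS) became 263 and 139 with median centring, 424 and 213 with a trend in the variance prior, 119 and 19 of 11355 with equal lists, 183 and 58 of 6825 regions above the median level, 34 and 1 with pileup, and 5 and 0 without normalisation, where the median log2 difference was −0.29 and 67 regions had an unadjusted p under 0.05 toward RS. All 63 calls toward PS were among those with median centring, the trend and the block. Leaving out any 1 library called 0 in both directions by limma, with 821 to 963 regions toward PS and 531 to 933 toward RS at an unadjusted p under 0.05, and the lone library of a stage was assumed to vary like the others. A replicate block gave 1451 and 1308 calls. The 7 promoter regions toward RS that missed the threshold (Pdk1, Psen2, Inpp5f, Luzp1, Plekho2, Antxrl and that of A530072M11Rik and Ripk2) passed it with median centring, the trend and the block (limma adjusted p = 5.19e-06 to 8.52e-05 with the block). Whether the replicate numbers pair the libraries is not stated, and with 2 pairs the deviations correlated at r = 0.32 over 13651 regions.

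Near-TSS shares in a 500-bp window were 17.6%, 46.4%, 26.0% and 37.3% in PS replicates 1 and 2 and RS replicates 1 and 2, and those in the 1-kb window with equal lists were 43.6%, 42.7% and 46.4% in PS replicate 1 and both RS libraries. With equal lists the X-box was in 0% of RS-only promoters, the GC box in 36.5% and the SOX core in 24.7%. Of the named promoters, 1600002D24Rik lost its call in windows of 500 bp and 2 kb and Hoxc5 in the latter. Named shared regions changed sign under none of the settings run. The causes were not tested.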
